A study of Mus musculus with 15 samples.

Results

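The complement, coagulation and fibrinolysis genes described here are 41 genes, taken by symbol from a named list and matched to exactly 1 Ensembl identifier each among the 55421 genes listed in every count file. Of these, 28 belong to complement and 13 to coagulation, its inhibitors and fibrinolysis. RNA was sequenced from the posterior eyecup, which is the back of the eye (retinal pigment epithelium, choroid and sclera) after removal of the neural retina. There were 15 libraries, all from mice aged 2.5 months: 4 were wild type (WT), 6 carried 1 FUN025 allele of Tmem135 (FUN025/+) and 5 carried 2 such alleles (FUN025/FUN025). FUN025 is a point mutation of Tmem135, a gene for a transmembrane protein that acts on mitochondrial dynamics, and it is carried in the germline, so the genotypes differ in all tissues and not in a chosen cell type. All mice were on the C57BL/6J background, and both sexes were used, but the labels do not give the sex of each mouse. More FUN025/+ libraries, and fewer FUN025/FUN025 libraries, had high Xist, the RNA made from the inactive X chromosome, than females are listed for these groups by the study. Which libraries are concerned cannot be told, and each fit was repeated without each library in turn.

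Complement is a cascade of proteases in which C1, bound to antibody or to cell surfaces, or the lectin proteases cleave C4 and C2, and the resulting convertase cleaves C3, the point at which all routes meet. The alternative pathway, with factors B and D and properdin, amplifies C3 cleavage, the terminal proteins C5 to C9 form a pore, and regulators such as factor I stop the cascade on host surfaces. Coagulation starts when tissue factor meets plasma and ends in fibrin, thrombomodulin and the endothelial protein C receptor turn thrombin towards the anticoagulant protein C, and plasminogen activators start the digestion of fibrin. Complement proteins are made by the liver for plasma but also locally by pigment epithelium, macrophages and stromal cells of the eye, and variants in complement genes are a known inherited risk for age-related macular degeneration.

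Of the 41 genes, 38 passed the filters on low counts and low variance and were tested among 18979 genes with edgeR's quasi-likelihood test, Benjamini-Hochberg adjusted over all genes tested. Levels below are counts per 1000000 library counts (CPM) after TMM scaling, in replicate order, and a gene was called at an adjusted p under 0.05. Among the 38, Cfi passed the filter on low counts only through its FUN025/FUN025 libraries, where it was high. In FUN025/FUN025 against FUN025/+ eyecups, 3 of the 38 genes were called, all higher: Cfi, A2m and C4b. That was 7.89% of the members, beside 0.522% of all genes tested (0.327% higher and 0.195% lower). The 41 genes were chosen with earlier results of these data known, so neither this share nor the member shares below are an independent test. In FUN025/FUN025 against WT eyecups, 9 of 38 were called, 4 higher (Cfi, A2m, C4b and Clu) and 5 lower (Procr, Thbd, Plat, Vtn and Plaur). This 23.7% compares with 14.0% of all genes (7.03% higher and 7.02% lower). In FUN025/+ against WT eyecups, 5 were called, 1 higher (Cr1l) and 4 lower (Procr, Thbd, Plat and Vtn), and this 13.2% was close to the 13.7% of all genes called there (7.09% higher and 6.61% lower). Both comparisons with WT use the same 4 WT libraries. The median log2 fold change of the 38 genes was 0.03 in FUN025/FUN025 against FUN025/+, 0.13 in FUN025/FUN025 against WT and 0.01 in FUN025/+ against WT, beside -0.0040, -0.0071 and -0.0023 over all genes. As a regression on the number of mutant alleles (limma on log2 CPM, adjusted p under 0.01), 3 of 38 genes were called, A2m and Cfi upwards and Procr downwards, beside 2.14% of all genes.

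**Figure D1:**
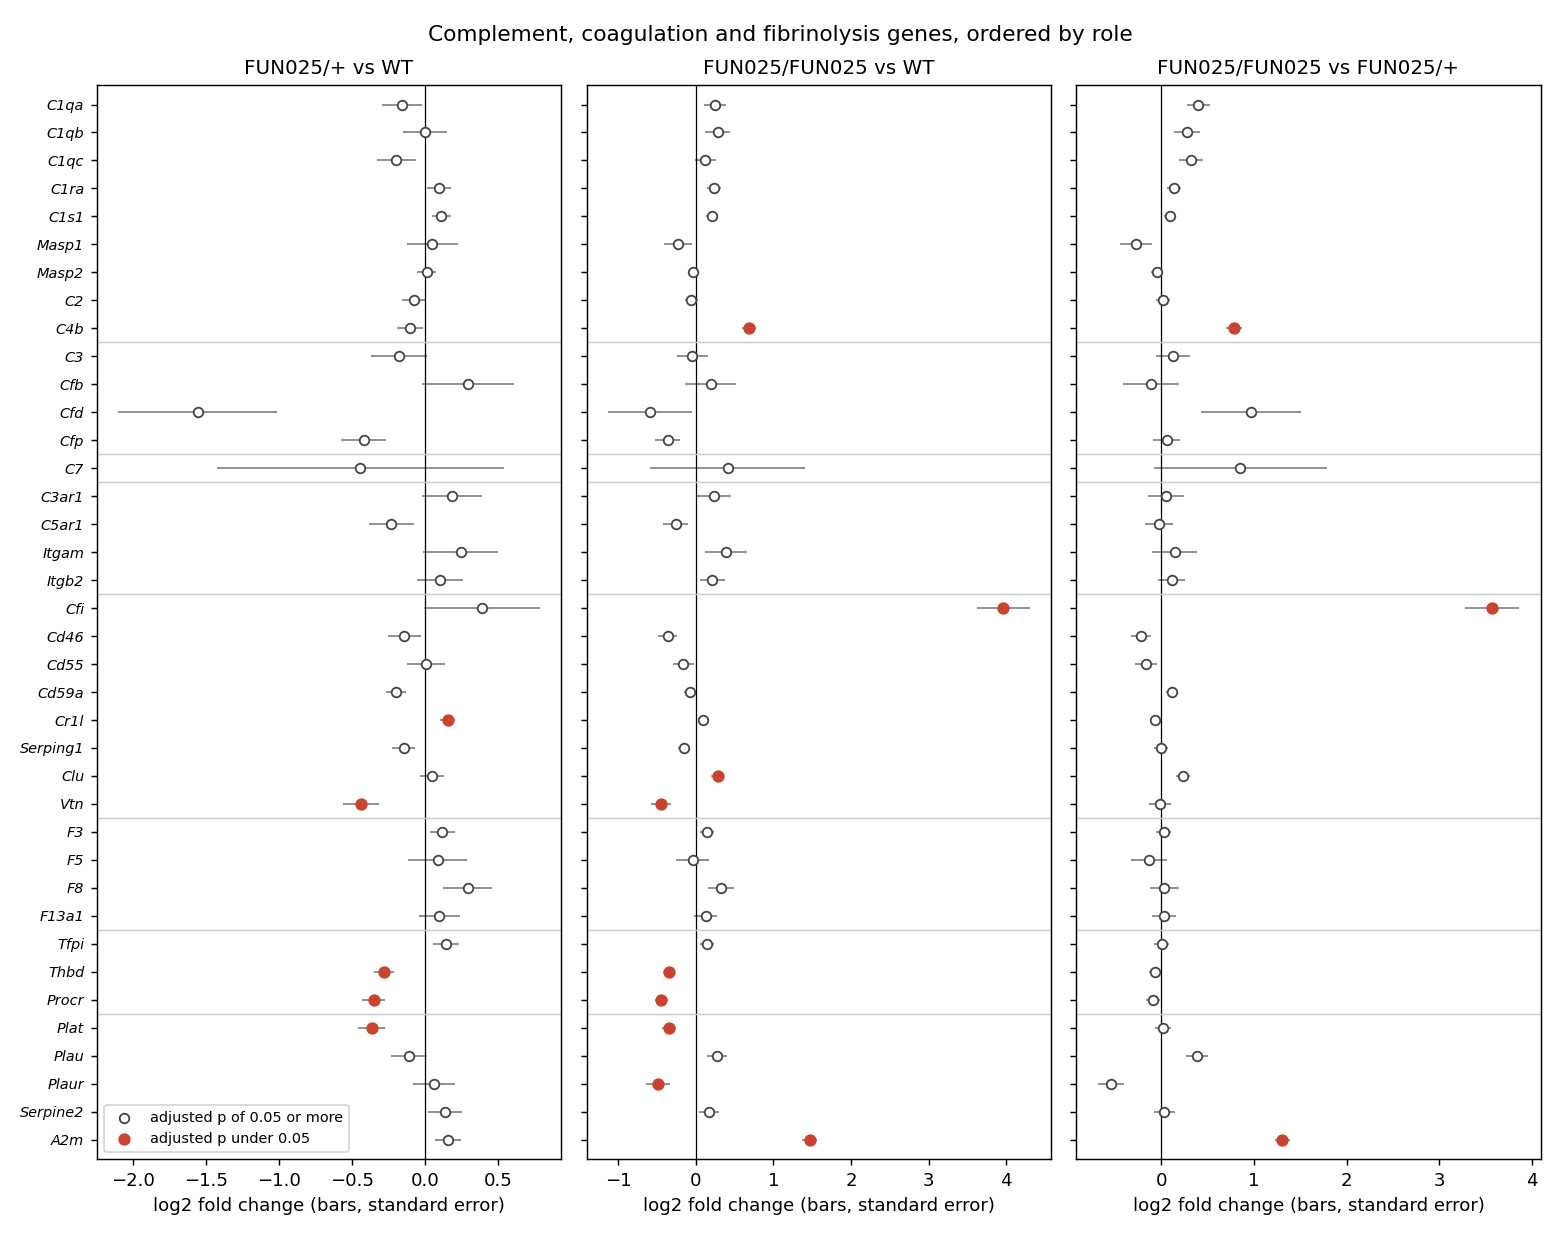
Log2 fold change (x axis) of the 38 tested genes (rows, ordered by role, grey lines between roles) in the 3 comparisons, with standard errors as bars and filled points for an adjusted p under 0.05. The x scales differ between panels. Cfi, at 3.96 and 3.57, and A2m, at 1.47 and 1.31, stand farthest to the right in the panels with FUN025/FUN025.

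Total counts were 18094977 to 20029919 in WT, 10903183 to 13456349 in FUN025/+ and 11053535 to 15038383 in FUN025/FUN025 libraries. No mutant library reached the depth of the shallowest WT library, and a difference between WT and mutants cannot be told apart from a difference in how the WT libraries were made, whereas the 2 mutant genotypes overlapped in depth. Markers of tissue beside the dissected eyecup also differed. Of 10 skeletal muscle markers, 3 were called lower in each mutant genotype than in WT, and their summed level was 5244 to 9949 CPM in WT, 2784 to 7263 CPM in FUN025/+ and 4293 to 5248 CPM in FUN025/FUN025, while the 10 rod markers, of which 0 and 1 were called, summed to 357 to 2519, 188 to 794 and 187 to 523 CPM. Tmem135 itself was at 59.8 to 66.2 CPM in WT, 66.1 to 86.3 CPM in FUN025/+ and 82.5 to 94.0 CPM in FUN025/FUN025, and its counts do not read the mutation. The 10 pigment epithelial markers were all detected, with a summed level of 19720 to 25722 CPM over the 15 libraries. In bulk tissue, fewer cells of a type and less RNA per cell cannot be told apart.

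Compared per length in WT eyecups, the genes spanned from Clu, at 848 CPM per kb of exon, to Hc, at 0.050 CPM per kb. Clu, which encodes clusterin, a secreted chaperone that also blocks the terminal pore, was followed by Serping1, the C1 inhibitor, at 120.4 CPM per kb, and the WT ranges of these 2 genes overlapped neither each other nor the next in order. C1qa followed at 81.7, C1qb at 62.2, Serpine2 at 50.7 and A2m at 49.0 CPM per kb, and from C1qa down to Vtn, at 29.4 CPM per kb, each gene's WT range overlapped that of the next. Of the 41 genes, 18 were at 10 CPM per kb or more, and 7 were under 1 CPM per kb, namely Cfb, Masp1, F8, Cfi, F10, C6 and Hc. The length includes exon overlapped by other gene models, 79.5% in Cfb, 68.7% in Itgam, 54.9% in Masp2 and 46.9% in C2. How the counting treated reads there is not given in the sources used here, so the places of these genes are uncertain.

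Cfi encodes factor I, the serine protease that, with a cofactor, cuts the active fragments of C3 and C4. The gene lies on chromosome 3, at chr3:129835884-129875332 on the plus strand of GRCm38 (ENSMUSG00000058952), with 15 exons after merging its transcripts, and none of its exonic sequence is shared with another gene over 31 bases. In the 4 WT libraries Cfi was at 0.723, 0.753, 0.300 and 0.167 CPM, which are 13, 14, 6 and 3 counts. The 6 FUN025/+ libraries ranged from 0.348 to 0.882 CPM, with a median of 0.629 CPM, and from 4 to 12 counts. The 5 FUN025/FUN025 libraries were at 8.54, 9.70, 9.56, 5.59 and 4.90 CPM, from 54 to 130 counts. Every FUN025/FUN025 library was thus above every library of the other genotypes, while WT and FUN025/+ overlapped. Cfi rose by a log2 fold change of 3.96 (SE 0.34, adjusted p = 4.24e-07) from WT and 3.57 (SE 0.30, adjusted p = 1.45e-06) from FUN025/+ to FUN025/FUN025 eyecups. These folds are 15.8 and 12.2 as ratios of mean CPM. From WT to FUN025/+ the log2 difference was 0.39 (SE 0.40, adjusted p = 0.547), and the slope in the regression was 1.93 per allele (SE 0.29, adjusted p = 0.00134).

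A2m encodes alpha-2-macroglobulin, a secreted trap for proteases of many classes, which include plasmin and thrombin, and a relative of C3 and C4. It lies on chromosome 6, at chr6:121635376-121679227 on the plus strand (ENSMUSG00000030111). A2m was at 354, 347, 351 and 324 CPM in the WT libraries. It ranged from 332 to 407 CPM in FUN025/+ libraries, with a median of 392 CPM. In the FUN025/FUN025 libraries it was at 845, 998, 1196, 820 and 888 CPM. Every FUN025/FUN025 library was above every other library, and WT and FUN025/+ overlapped. The log2 fold change was 1.47 (SE 0.09, adjusted p = 2.02e-08) against WT and 1.31 (SE 0.08, adjusted p = 4.46e-08) against FUN025/+.

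C4b encodes complement C4, the substrate of the C1 and lectin proteases. It lies on chromosome 17, at chr17:34728380-34743882 on the minus strand (ENSMUSG00000073418), beside C2 and Cfb. C4b was at 203, 217, 170.4 and 194 CPM in WT. In FUN025/+ libraries it ranged from 147 to 199 CPM, with a median of 189 CPM. In FUN025/FUN025 it was at 321, 287, 316, 364 and 285 CPM. No FUN025/FUN025 library overlapped another genotype, and FUN025/+ overlapped WT. C4b rose by 0.68 (SE 0.09, adjusted p = 0.000109) against WT and by 0.79 (SE 0.08, adjusted p = 4.23e-05) against FUN025/+, both on the log2 scale. C4b shares 48.3% of its exonic stretches of 31 bases with its near copy C4a. C4a had 297 counts in all 15 libraries together and C4b had 48178. In FUN025/FUN025, C4a was at -0.12 (SE 0.25, adjusted p = 0.798) against WT. How the counting treated reads shared by the 2 genes is not given, and their part was not tested.

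Cfi, A2m and C4b kept their calls and their direction in both comparisons under all alternatives in which they were tested, and when any of the 15 libraries was left out. The log2 fold change against FUN025/+ stayed between 3.33 and 3.82 for Cfi, between 1.21 and 1.36 for A2m and between 0.73 and 0.82 for C4b. Cfi was not tested when 10 counts were required in every library. Of the 12 macrophage and microglial markers, 2 were called higher in FUN025/FUN025 than in FUN025/+ eyecups, beside 0.327% of all genes. Trem2 was among them, by 0.55 on the log2 scale (adjusted p = 0.0398). Against WT, 3 were called higher, Trem2 and Cd68 among them, beside 7.03% of all genes. The log2 fold change was above 0 for 11 of the 12 markers against WT and for 8 against FUN025/+. The summed level of the 12 markers was 638 to 703 CPM in FUN025/FUN025, within the 572 to 755 CPM of FUN025/+ and overlapping the 554 to 667 CPM of WT. Only FUN025/+ replicate 2 was at 755 CPM, and the other FUN025/+ libraries were at 572 to 667 CPM. Of 8 hepatocyte markers, 6 were too low to be tested. The other 2 were tested and not called, Ttr, which is also on the pigment epithelial list, at 4964 to 7898 CPM, and Apoh at 0.612 to 1.93 CPM. Of the 6, Alb, Apoa1, Apob and Ahsg were at 0 to 0.454 CPM in every library, Apoa2 reached 0.656 CPM in FUN025/+, and Serpina1b was at 0.0556 to 0.334 CPM in WT, 0.0748 to 0.695 CPM in FUN025/+ and 0.154 to 1.04 CPM in FUN025/FUN025.

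**Figure D2:**
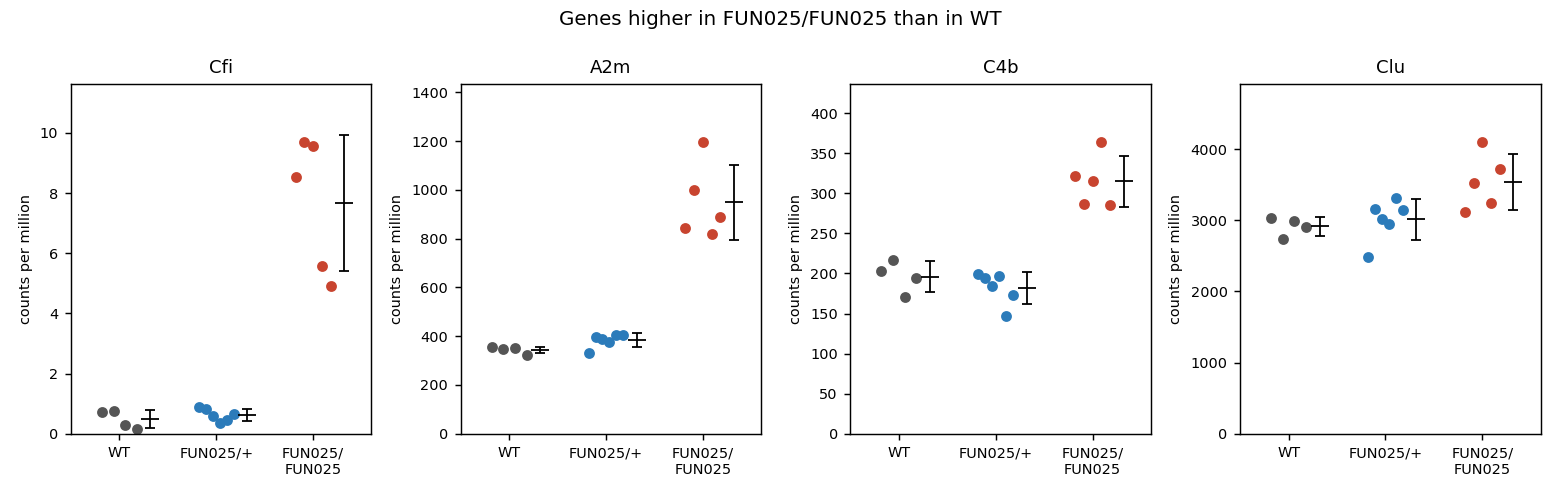
CPM (y axis from 0) of Cfi, A2m, C4b and Clu in each library (points) by genotype, with the mean and SD beside them (n = 4, 6 and 5). For Cfi, A2m and C4b the 5 FUN025/FUN025 libraries sit above all others, and for Clu they range from 3112 to 4101 CPM and overlap FUN025/+.

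Among the other genes at the head of the cascade, none of 8 was called in any of the 3 comparisons. C1qa, C1qb and C1qc encode the 3 chains of C1q, the recognition part of C1, and lie side by side on chromosome 4. C1qa was at 78.1, 79.5, 74.0 and 108 CPM in WT libraries, from 63.1 to 106 CPM (median 72.9 CPM) in FUN025/+ and at 99.96, 90.5, 102, 103 and 106 CPM in FUN025/FUN025 libraries. WT replicate 4 and FUN025/+ replicate 2 were the highest libraries of their genotypes for all 3 chains, and the 3 genotypes overlapped for C1qa. The log2 difference of C1qa between FUN025/FUN025 and FUN025/+ was 0.40 (SE 0.13, adjusted p = 0.41) with all libraries and 0.52 (SE 0.09, adjusted p = 0.0144) without FUN025/+ replicate 2. For C1qb and C1qc the same differences were 0.28 (SE 0.14) and 0.32 (SE 0.13) with all libraries. FUN025/+ replicate 2 also had the highest summed macrophage level, 755 CPM, and the highest level of the macrophage marker Adgre1, 65.5 CPM. C1qc likewise passed in FUN025/+ against WT once this library was left out (-0.31, SE 0.10, adjusted p = 0.0493). With the macrophage marker level as a covariate the C1qa difference was 0.24 (SE 0.07, adjusted p = 0.163), and C1qc again passed in FUN025/+ against WT (-0.23, SE 0.07, adjusted p = 0.0247).

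The proteases that C1q carries, encoded by C1ra and C1s1, were at 50.2 ± 4.51 and 117 ± 8.10 CPM (SD, n = 4) in WT libraries and at 58.9 ± 8.30 and 134 ± 9.22 CPM (SD, n = 5) in FUN025/FUN025. C1s1 differed from WT by 0.20 (SE 0.07, adjusted p = 0.0557), just outside the threshold, and was called in 12 of the alternative fits, among them those without WT replicate 1, FUN025/+ replicate 3 or 6 or FUN025/FUN025 replicate 4 (0.20 to 0.25, adjusted p of 0.0257 to 0.0393). C1ra was called without WT replicate 1 (0.29, adjusted p = 0.0345) or FUN025/FUN025 replicate 4 (0.32, adjusted p = 0.00582), and with the endothelial marker covariate. C1ra shares 59.6% and C1s1 47.6% of its 31-base stretches with the near copies C1rb and C1s2, which held 31 and 80 counts in all. Masp1 and Masp2, proteases of the lectin pathway, and C2, the partner of C4 in the C3 convertase, had log2 differences between -0.28 and 0.05 in the 3 comparisons. For Masp2, 54.9% of the exonic length is overlapped by Tardbp, which was at 233 to 294 CPM, and the strand setting of the counts is not given in the sources used here, so reads of the overlap cannot be told apart. For C2, 46.9% of the exonic length is overlapped by other gene models, among them the read-through model Gm20547, which had 0 counts. How the counting treated reads shared by genes is not given, so whether the overlap affects the level of C2 cannot be told.

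**Figure D3:**
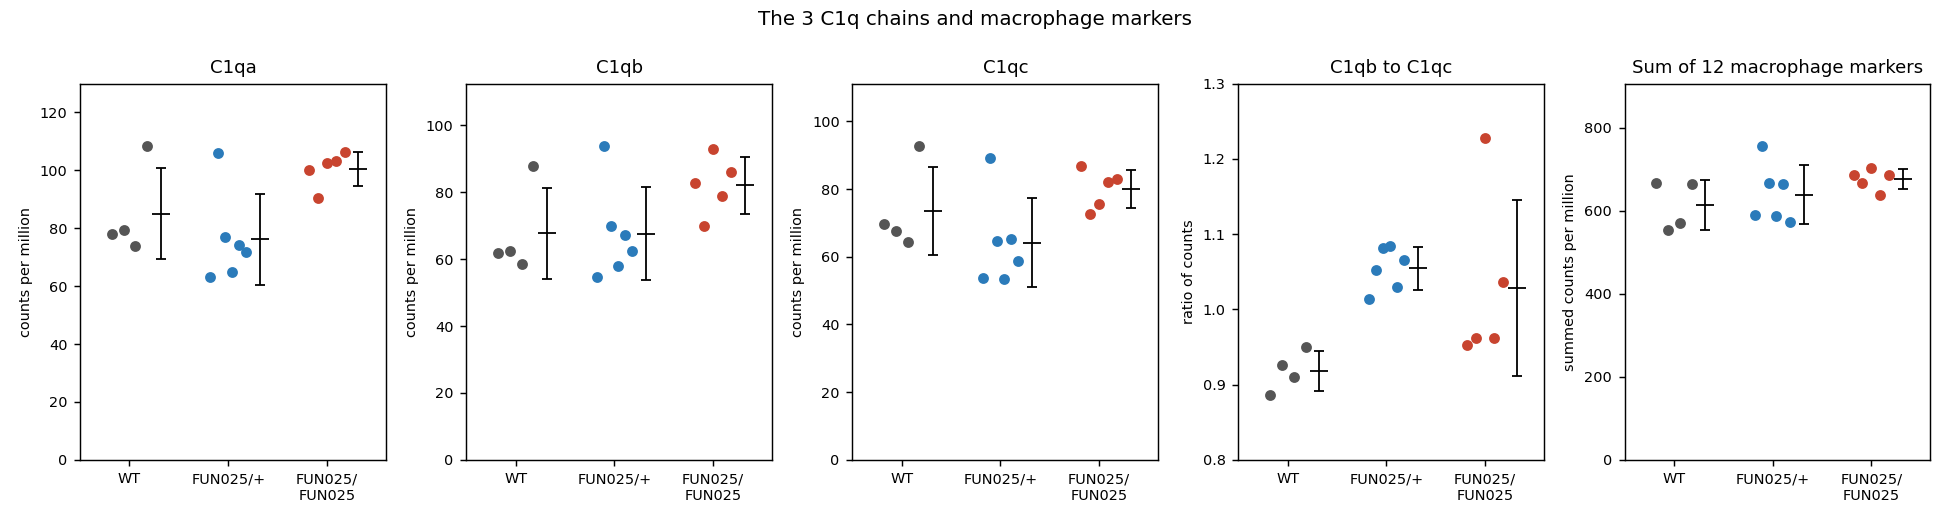
CPM of the 3 C1q chains, the ratio of C1qb to C1qc counts (axis from 0.8) and the summed CPM of 12 macrophage markers in each library (points) by genotype, with mean and SD (n = 4, 6 and 5). WT replicate 4, at 108 CPM of C1qa, and FUN025/+ replicate 2, at 106 CPM, stand above the rest of their groups.

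The RefSeq promoter table holds a window of 250 bases before to 50 bases after the start for 28 of the 41 genes, which leaves out Cfi, A2m and C4b. The windows of C1qb and C1qc are shown because these neighbouring genes had the same high libraries, on the strand of the gene (minus), in build GRCm38.p6, with matches to AGGAAG or its reverse complement CTTCCT, the core that PU.1, the lineage factor of macrophages, can bind, in capitals. C1qb, chr4:136886151-136886450, has 2 matches and C1qc, chr4:136892865-136893164, has 2.
C1qb: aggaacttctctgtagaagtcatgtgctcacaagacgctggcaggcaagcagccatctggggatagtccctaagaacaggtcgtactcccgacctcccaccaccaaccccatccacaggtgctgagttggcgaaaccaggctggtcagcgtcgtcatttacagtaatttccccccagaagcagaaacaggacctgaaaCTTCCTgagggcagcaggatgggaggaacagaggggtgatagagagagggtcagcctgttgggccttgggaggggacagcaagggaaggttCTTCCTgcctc
C1qc: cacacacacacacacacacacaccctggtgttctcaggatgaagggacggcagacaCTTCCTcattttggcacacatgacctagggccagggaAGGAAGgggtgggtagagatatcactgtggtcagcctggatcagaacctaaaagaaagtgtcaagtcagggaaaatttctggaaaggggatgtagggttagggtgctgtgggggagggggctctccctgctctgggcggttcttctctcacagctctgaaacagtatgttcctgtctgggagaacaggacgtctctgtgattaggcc
AGGAAG or its complement occurs in 35.4% of the 32851 windows in the table. It occurs in at least 1 window of 13 of the 28 member genes, a count by gene and not by window. A match is thus a description of these letters and no sign of binding.

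C3, the central component, was called in none of the comparisons. It was at 36.9, 21.8, 29.7 and 34.1 CPM in WT libraries, from 23.2 to 32.4 CPM (median 26.7 CPM) in FUN025/+ and at 44.5, 27.9, 27.6, 20.6 and 27.1 CPM in FUN025/FUN025. The 3 genotypes overlapped throughout, and the log2 difference of FUN025/FUN025 was -0.05 (SE 0.20) from WT and 0.13 (SE 0.18) from FUN025/+. Cfb, factor B, which binds C3b in the alternative convertase, was at 7 to 36 counts per library, with no call. For Cfb, 79.5% of the exonic length is overlapped by the read-through model Gm20547, which had 0 counts. How the counting treated reads shared by genes is not given in the sources used here. Whether the overlap, besides depth, affects this level was not tested. Cfp, properdin, which stabilises that convertase, was at 16.9 ± 2.68 CPM (SD, n = 4) in WT, 12.6 ± 2.71 CPM (n = 6) in FUN025/+ and 13.2 ± 2.31 CPM (n = 5) in FUN025/FUN025, a log2 difference of -0.42 (SE 0.15, adjusted p = 0.0742) for FUN025/+ and -0.36 (SE 0.16, adjusted p = 0.139) for FUN025/FUN025 against WT. The former passed in 3 alternatives, without FUN025/+ replicate 2 (-0.54, adjusted p = 0.016) and with the macrophage or Xist covariate (lowest adjusted p = 0.00412), and the latter passed with the Xist covariate (-0.38, adjusted p = 0.0202).

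Cfd, factor D (adipsin), the protease that cleaves factor B, was at 3.17, 3.66, 3.15 and 18.1 CPM in WT libraries. It ranged from 1.64 to 2.82 CPM in FUN025/+, with a median of 2.49 CPM. In FUN025/FUN025 libraries it was at 9.46, 3.39, 2.41, 2.96 and 4.72 CPM. All 6 FUN025/+ libraries lay below all 4 WT libraries, but the log2 difference of -1.56 (SE 0.55, adjusted p = 0.0763) missed the threshold, although DESeq2's Wald test gave an adjusted p of 0.0303. It was -1.80 (adjusted p = 0.049) without WT replicate 1 and -0.48 (SE 0.34, adjusted p = 0.435) without WT replicate 4. WT replicate 4 and FUN025/FUN025 replicate 1, the highest for Cfd, also had the highest levels of the adipocyte gene Adipoq, at 2.95 and 1.84 CPM, beside 0.247 to 1.73 CPM in the other libraries. Of 3 further adipocyte genes, Plin1 and Cidec were also highest in these libraries (Cidec at 2.45 and 1.71 CPM), while Fabp4 was highest in WT replicate 4, at 27.6 CPM, but at 12.4 CPM in FUN025/FUN025 replicate 1, below the other WT libraries. These genes were chosen after the values were seen, and their part in the result was not tested.

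Of the terminal pathway, Hc (C5) and C6 were removed by the filter on low counts, with 2 to 14 and 0 to 6 counts per library. C7, which joins C5b and C6 before the pore forms, was tested and had the largest standard errors of the 38 genes. It was at 9.79, 1.88, 11.5 and 0.445 CPM in WT, from 0.225 to 9.21 CPM (median 3.60 CPM) in FUN025/+ and at 1.64, 16.2, 8.76, 1.97 and 11.0 CPM in FUN025/FUN025 libraries. Its libraries fell high or low within each genotype, and the log2 difference between FUN025/FUN025 and WT was 0.41 (SE 1.00), and 0.85 (SE 0.35, adjusted p = 0.124) with Xist as a covariate. Xist was at 670 to 976 CPM in 7 libraries and at 2.45 to 11.6 CPM in the other 8, and C7 was at 0.225 to 1.97 CPM in the former and at 6.10 to 16.2 CPM in the latter. This is a description without a test, since the labels give no sex for each mouse. C7 was the only gene of the 38 whose ranges did not overlap between these sets of libraries, beside 0.205% of all genes tested. The 7 libraries were 2 of 4 WT, 3 of 6 FUN025/+ and 2 of 5 FUN025/FUN025.

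**Figure D4:**
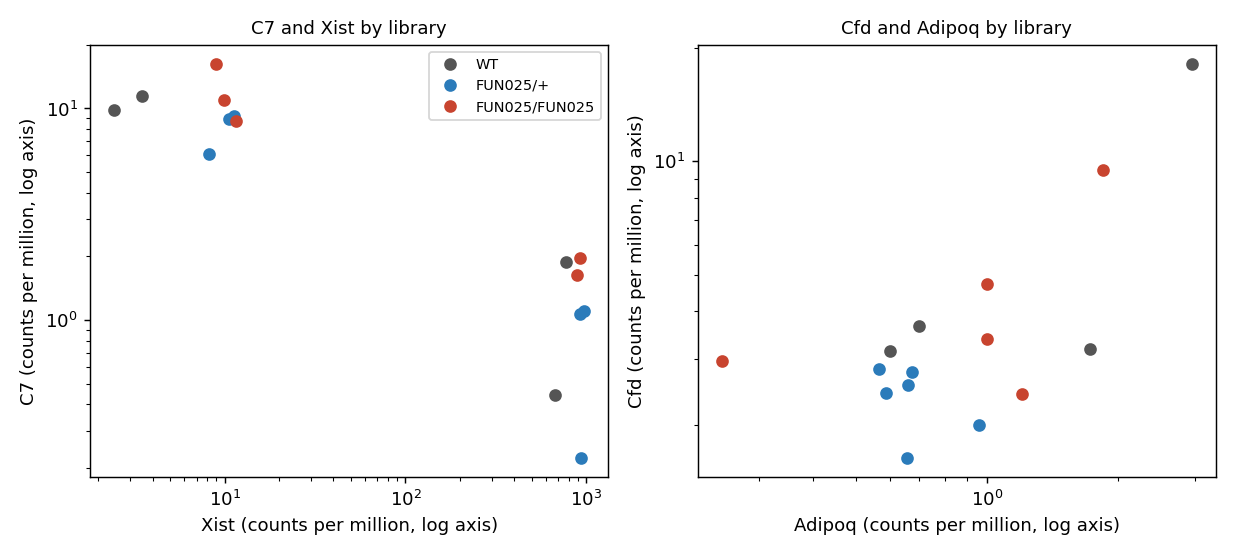
CPM of C7 against Xist (left) and of Cfd against Adipoq (right) in each of the 15 libraries, coloured by genotype, with log axes. The 7 libraries with Xist at 670 CPM or more have C7 at 1.97 CPM or less, and the highest Cfd, 18.1 CPM in WT replicate 4, goes with the highest Adipoq, 2.95 CPM.

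Of the 4 receptors for complement fragments, none was called. C3ar1, the receptor of C3a, was at 16.3 ± 4.36 CPM in WT (SD, n = 4), 18.5 ± 5.16 CPM in FUN025/+ (n = 6) and 19.1 ± 2.83 CPM in FUN025/FUN025 (n = 5). C5ar1, the receptor of C5a, was at 7.49 ± 1.23, 6.37 ± 1.18 and 6.24 ± 1.15 CPM in the same order. Itgam and Itgb2, which together form complement receptor 3, had log2 differences of 0.39 (SE 0.27) and 0.21 (SE 0.16) between FUN025/FUN025 and WT. For Itgam, 68.7% of the exonic length lies within the model Gm49368, which had 2 counts in all. How the counting treated reads shared by genes is not given, so whether the overlap affects the level of Itgam cannot be told.

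Besides Cfi, the regulators Clu, Vtn and Cr1l were called in a comparison. Clu was at 3030, 2735, 2994 and 2905 CPM in WT. It ranged from 2490 to 3310 CPM in FUN025/+, with a median of 3083 CPM, and was at 3112, 3519, 4101, 3250 and 3719 CPM in FUN025/FUN025. All 5 FUN025/FUN025 libraries were above all 4 WT libraries, and FUN025/+ overlapped both. Clu was higher in FUN025/FUN025 than in WT by 0.28 (SE 0.09, adjusted p = 0.0376), and by 0.23 (SE 0.08, adjusted p = 0.408) than in FUN025/+. The call against WT was lost when WT replicate 2, 3 or 4 or FUN025/FUN025 replicate 2, 3 or 5 was left out, with log2 fold changes of 0.22 to 0.30 and adjusted p of 0.053 to 0.093. It was also lost in 4 of 16 other alternatives, the replicate block (0.24, adjusted p = 0.074) and the macrophage (0.23, adjusted p = 0.092), endothelial (0.29, adjusted p = 0.18) and rod and muscle covariates (0.43, adjusted p = 0.102).

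Vtn encodes vitronectin, an adhesive plasma and matrix protein that blocks the terminal pore and stabilises the plasminogen activator inhibitor PAI-1. It lies at chr11:78499091-78502324 on the plus strand (ENSMUSG00000017344). Vtn was at 60.3, 69.3, 59.0 and 50.3 CPM in WT, from 38.8 to 52.5 CPM (median 42.9 CPM) in FUN025/+ and at 30.6, 50.1, 49.1, 46.8 and 42.4 CPM in FUN025/FUN025. The FUN025/FUN025 libraries were all below WT, and 1 FUN025/+ library reached into the WT range. The log2 fold change against WT was -0.44 (SE 0.12, adjusted p = 0.0283) for FUN025/+ and -0.45 (SE 0.13, adjusted p = 0.0299) for FUN025/FUN025. The call was lost in 4 of 16 other alternatives for FUN025/+ and in 6 of 16 for FUN025/FUN025. No filter on low counts, a GC offset and the rod and muscle or endothelial marker covariates ended both calls, and the macrophage covariate (adjusted p = 0.0645) and a fit of the compared genotypes alone ended that of FUN025/FUN025. The log2 fold changes in these fits were -0.47 to -0.37 for FUN025/+ and -0.51 to -0.40 for FUN025/FUN025, except with the rod and muscle covariates, where they were -0.25 (adjusted p = 0.674) and -0.28 (adjusted p = 0.54). Leaving out WT replicate 1, 2 or 3 also ended both calls, as did FUN025/+ replicate 3 or 5 for FUN025/+ and FUN025/FUN025 replicate 5 for FUN025/FUN025, with log2 fold changes of -0.45 to -0.35 and adjusted p of 0.0528 to 0.098.

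Cr1l encodes Crry, the rodent membrane regulator of C3 convertases, and was at 64.0, 57.1, 62.1 and 57.7 CPM in WT, from 62.7 to 72.0 CPM (median 67.9 CPM) in FUN025/+ and at 68.0, 64.3, 61.9, 60.7 and 64.9 CPM in FUN025/FUN025. The ranges overlapped, and the rise of 0.16 (SE 0.05, adjusted p = 0.0496) in FUN025/+ against WT was lost in 11 of 15 fits that each left out 1 library, all but those without WT replicate 1, FUN025/+ replicate 4 or 5 or FUN025/FUN025 replicate 1 (0.13 to 0.17, adjusted p of 0.0519 to 0.134) and in 9 of 16 other alternatives. In 7 of these 9 it was 0.14 to 0.17, but it was 0.055 (adjusted p = 0.611) with a GC offset and 0.015 (adjusted p = 0.973) with the rod and muscle covariates. The membrane regulators Cd46, Cd55 and Cd59a and the C1 inhibitor Serping1 were not called. Cd46, which in mice is known mainly from sperm, was at 24.2 ± 5.26 CPM in WT (SD, n = 4) and at 18.8 ± 2.04 CPM in FUN025/FUN025 (n = 5), and FUN025/FUN025 differed from WT by -0.36 (SE 0.12, adjusted p = 0.0524), which passed in 6 alternatives, without WT replicate 1 (-0.46, adjusted p = 0.0135) or 3 (-0.42, adjusted p = 0.044), with DESeq2's Wald test, after thinning to equal depth, with a GC offset and with the Xist covariate. Cd59a, which blocks the pore, was at 43.2 ± 2.18 CPM in WT (n = 4) and in FUN025/+ at 37.7 ± 2.95 CPM (n = 6), a difference of -0.20 (SE 0.07, adjusted p = 0.0688), which passed after thinning to equal depth and with a GC offset (-0.25 to -0.23, lowest adjusted p = 0.0353).

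None of the 4 tested coagulation factors was called in any comparison, and F10 was removed by the filter, with 0 to 7 counts per library. F3, tissue factor, the cell-surface starter of coagulation, was at 107 ± 11.4 CPM in WT (SD, n = 4), 116 ± 12.1 CPM in FUN025/+ (n = 6) and 118 ± 10.8 CPM in FUN025/FUN025 (n = 5). F5, the cofactor of factor Xa, F8, the cofactor of factor IXa, and F13a1, the transglutaminase chain that cross-links fibrin, had log2 differences between -0.13 and 0.32 in the 3 comparisons, with standard errors up to 0.21.

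Both receptors of the protein C pathway were lower in each mutant genotype than in WT. Thbd encodes thrombomodulin, the endothelial receptor that turns thrombin to the activation of protein C, and lies at chr2:148404466-148408188 on the minus strand (ENSMUSG00000074743), in 1 exon. Thbd was at 122, 133, 134 and 144 CPM in WT. It ranged from 99.0 to 119.8 CPM in FUN025/+, with a median of 108 CPM, and was at 118, 102, 95.7, 111 and 96.0 CPM in FUN025/FUN025. Every mutant library was below every WT library, and the 2 mutant genotypes overlapped. Thbd fell by 0.28 (SE 0.07, adjusted p = 0.0102) in FUN025/+ and by 0.35 (SE 0.07, adjusted p = 0.00304) in FUN025/FUN025 on the log2 scale. Without WT replicate 4 (-0.24, adjusted p = 0.0554) and with the replicate block (adjusted p = 0.0524) the FUN025/+ call was lost. The slope of Thbd, -0.17 per allele (adjusted p = 0.0113), missed the threshold of the regression and passed in 4 alternatives.

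Procr encodes the endothelial protein C receptor, which presents protein C to thrombomodulin, and lies at chr2:155751117-155755471 on the plus strand (ENSMUSG00000027611). It was at 26.0, 24.8, 26.5 and 25.2 CPM in WT. In FUN025/+ it ranged from 17.0 to 22.2 CPM, with a median of 20.8 CPM, and in FUN025/FUN025 it was at 21.8, 17.9, 17.8, 17.3 and 19.2 CPM. Here too all 11 mutant libraries were below all 4 WT libraries. Procr fell by 0.35 (SE 0.08, adjusted p = 0.00673) in FUN025/+ and by 0.44 (SE 0.08, adjusted p = 0.00148) in FUN025/FUN025, with a slope of -0.22 per allele (adjusted p = 0.00676). The calls against WT held when any 1 library was left out, but the slope lost its call without any of the WT libraries, FUN025/+ replicate 3 or FUN025/FUN025 replicate 2, 3, 4 or 5 (-0.23 to -0.20, adjusted p of 0.0101 to 0.0336). It was also lost after thinning to equal depth and with the replicate block (-0.22 to -0.20, adjusted p of 0.0137 to 0.0355). Tfpi, the inhibitor of tissue factor and factor Xa, was not called, at 33.3 ± 3.17 CPM in WT (SD, n = 4), 36.8 ± 4.63 CPM in FUN025/+ (n = 6) and 36.9 ± 2.37 CPM in FUN025/FUN025 (n = 5).

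Part of the endothelial markers were lower as well. Of 10 such markers, 4 were called lower in FUN025/+ and 7 in FUN025/FUN025 against WT, among them Plvap (-0.33 and -0.64), Eng (-0.41 and -0.60) and Cdh5 (-0.27 and -0.50), and none was called between the mutant genotypes. Erg (0.14 and 0.17), Tek (0.050 and -0.074) and Kdr (-0.036 and -0.34) were called in neither. Their summed level was 1297 to 1518 CPM in WT, 1002 to 1374 CPM in FUN025/+ and 898 to 1137 CPM in FUN025/FUN025. With the endothelial marker level as a covariate, an alternative chosen after seeing the data, the differences in FUN025/FUN025 were -0.22 (SE 0.10, adjusted p = 0.203) for Thbd and -0.35 (SE 0.12, adjusted p = 0.0995) for Procr, and in FUN025/+ they were -0.22 (SE 0.07, adjusted p = 0.0536) and -0.31 (SE 0.09, adjusted p = 0.0347). In the same fit Tfpi passed upwards in both mutant genotypes, by 0.28 (adjusted p = 0.0254) in FUN025/+ and 0.43 (adjusted p = 0.0229) in FUN025/FUN025, beside 0.15 in both without the covariate. The receptor C3ar1 likewise passed upwards in that fit alone, by 0.50 (adjusted p = 0.0322) and 0.92 (adjusted p = 0.0114). With rod and muscle marker levels as covariates, no member was called in FUN025/+ against WT, where 190 genes in all were called. In that comparison the log2 differences of Thbd (-0.53, SE 0.13, adjusted p = 0.0649), Procr (-0.59, SE 0.14, adjusted p = 0.0613) and Plat were larger than without the covariates, with larger standard errors, whereas those of Vtn and Cr1l were smaller. In the same fit, Thbd (-0.57, adjusted p = 0.0179) and Procr (-0.67, adjusted p = 0.0115) kept their calls in FUN025/FUN025. The part of these markers in the results was not tested beyond these fits.

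The windows of Procr and Vtn are shown because both genes were lower in both mutant genotypes than in WT. Capitals mark matches to CACCC or its reverse complement GGGTG, the box that factors of the KLF family can bind. Both windows are in build GRCm38.p6 on the plus strand, Procr at chr2:155750967-155751266 and Vtn at chr11:78498870-78499169, with 1 match each.
Procr: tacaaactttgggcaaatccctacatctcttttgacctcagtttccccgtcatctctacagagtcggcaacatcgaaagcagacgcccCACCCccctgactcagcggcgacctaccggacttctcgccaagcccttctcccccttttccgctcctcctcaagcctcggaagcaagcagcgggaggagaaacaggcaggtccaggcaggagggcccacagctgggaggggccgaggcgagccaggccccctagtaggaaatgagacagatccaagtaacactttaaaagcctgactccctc
Vtn: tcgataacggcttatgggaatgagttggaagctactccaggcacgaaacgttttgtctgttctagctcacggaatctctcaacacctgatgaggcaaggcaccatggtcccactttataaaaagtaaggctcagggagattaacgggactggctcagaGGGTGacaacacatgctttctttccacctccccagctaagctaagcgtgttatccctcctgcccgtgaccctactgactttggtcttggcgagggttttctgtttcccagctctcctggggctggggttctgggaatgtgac
CACCC or its complement occurs in 57.5% of all windows in the table. It occurs in at least 1 window of 20 of the 28 member genes, and Thbd and Plat have no entry there.

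Plat encodes tissue plasminogen activator and lies at chr8:22757727-22782844 on the plus strand (ENSMUSG00000031538). It was at 69.9, 66.7, 55.3 and 69.5 CPM in WT, from 44.8 to 54.0 CPM (median 52.9 CPM) in FUN025/+ and at 57.2, 42.0, 45.9, 53.2 and 58.4 CPM in FUN025/FUN025. All 6 FUN025/+ libraries were below all WT libraries, while 2 FUN025/FUN025 libraries were above the lowest WT library. Plat fell by 0.37 (SE 0.09, adjusted p = 0.0135) in FUN025/+ and by 0.35 (SE 0.10, adjusted p = 0.0219) in FUN025/FUN025 against WT. The FUN025/+ call was lost without WT replicate 4 (-0.33, adjusted p = 0.0624) and with the rod and muscle covariates (-0.65, SE 0.19, adjusted p = 0.131). The FUN025/FUN025 call was lost without WT replicate 1, 2 or 4 or FUN025/FUN025 replicate 3, with log2 fold changes of -0.33 to -0.31 and adjusted p of 0.0532 to 0.0836. It was also lost in 4 of 16 other alternatives, a fit of the compared genotypes alone, a replicate block and the rod and muscle or endothelial covariates, with log2 fold changes of -0.61 to -0.34 and adjusted p of 0.0512 to 0.149.

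Plaur encodes the receptor of urokinase on leukocytes and other migrating cells, at chr7:24462484-24475968 on the plus strand (ENSMUSG00000046223). It was at 4.90, 5.49, 5.95 and 8.17 CPM in WT, from 5.65 to 7.46 CPM (median 6.01 CPM) in FUN025/+ and at 5.06, 3.70, 4.42, 4.03 and 4.63 CPM in FUN025/FUN025. Every FUN025/FUN025 library was below every FUN025/+ library, and 1 was above the lowest WT library. Against WT, Plaur was lower by a log2 fold change of -0.49 (SE 0.15, adjusted p = 0.04). Against FUN025/+ the difference was -0.55 (SE 0.14, adjusted p = 0.126) and passed only with the macrophage covariate or without WT replicate 4 (-0.55, adjusted p = 0.0494). The call against WT was lost in 7 of 15 fits without 1 library, those without WT replicate 3 or 4, FUN025/+ replicate 3 or FUN025/FUN025 replicate 2, 3, 4 or 5 (-0.51 to -0.31, adjusted p of 0.0507 to 0.187). It was also lost in 8 of 16 other alternatives, at -0.49 to -0.36 except for -0.80 (adjusted p = 0.119) with the rod and muscle covariates, and thinning to equal depth gave -0.39 (adjusted p = 0.0874).

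Plau, urokinase itself, was at 13.7 ± 1.92 CPM in WT (SD, n = 4), 12.7 ± 1.88 CPM in FUN025/+ (n = 6) and 16.7 ± 2.56 CPM in FUN025/FUN025 (n = 5), a log2 difference of 0.39 (SE 0.12, adjusted p = 0.305) between the mutant genotypes. Serpine2, protease nexin 1, an inhibitor of thrombin and urokinase, was at 420 ± 54.0, 462 ± 48.8 and 473 ± 80.4 CPM in the same order and was not called.

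**Figure D5:**
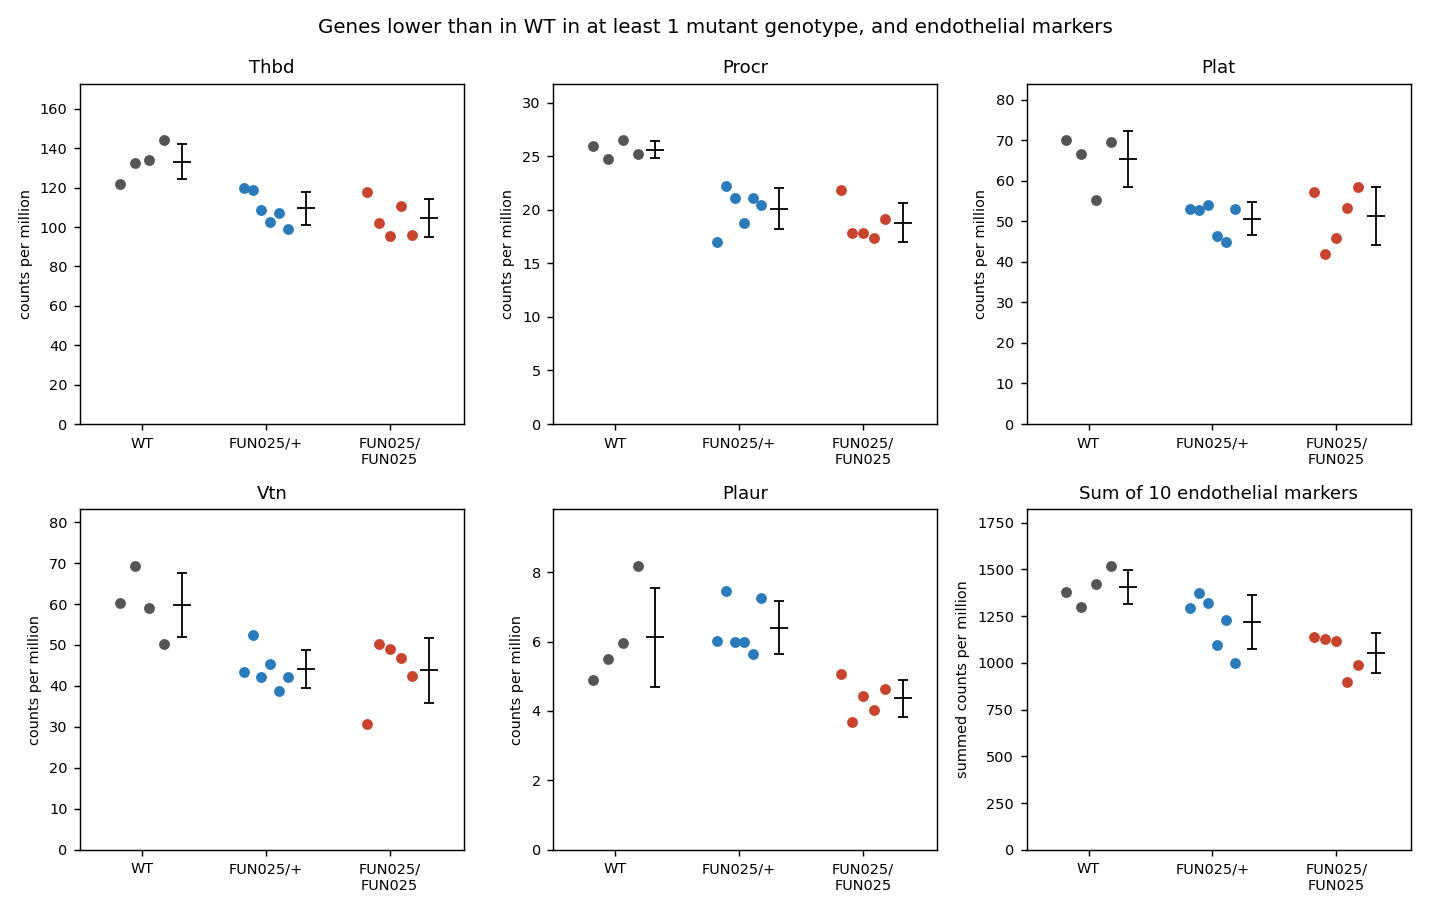
CPM (y axis from 0) of Thbd, Procr, Plat, Vtn and Plaur and the summed CPM of 10 endothelial markers in each library (points) by genotype, with mean and SD (n = 4, 6 and 5). For Thbd and Procr all 11 mutant libraries sit below the 4 WT libraries, and the endothelial sum falls from 1297 to 1518 CPM in WT to 898 to 1137 CPM in FUN025/FUN025.

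Counted by whether any library of 1 genotype overlapped the other, without regard to a test, 4 of the 38 genes were apart in FUN025/FUN025 against FUN025/+ (Cfi, A2m, C4b and Plaur), beside 1.12% of all genes. There were 7 in FUN025/FUN025 against WT (Cfi, A2m, C4b, Clu, Vtn, Thbd and Procr), beside 14.8% of all genes, and 4 in FUN025/+ against WT (Thbd, Procr, Plat and Cfd), beside 10.9%.

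Of 67 other genes of the same systems, 33 were tested. None was called in FUN025/FUN025 against FUN025/+. Against WT, 4 of the 33 were called in FUN025/FUN025 eyecups, beside 14.0% of all genes, and 2 in FUN025/+, beside 13.7%, so neither count stood above the share over all genes. FUN025/FUN025 eyecups were higher in 3, C1rl, a relative of C1r (0.52, SE 0.14, adjusted p = 0.0194), Serpinf2, the plasmin inhibitor alpha-2-antiplasmin (0.99, SE 0.26, adjusted p = 0.0175, at 0.835 to 2.81 CPM over both genotypes), and Lman1, a cargo receptor for factors V and VIII (0.26, SE 0.05, adjusted p = 0.00204). They were lower in 1, Vwf, von Willebrand factor, which endothelial cells store (-0.37, SE 0.11, adjusted p = 0.0313). Among those called in FUN025/+ was C1qbp, a mostly mitochondrial protein, which was at 48.1 to 51.3 CPM in WT and 38.8 to 45.5 CPM in FUN025/+ (-0.24, SE 0.05, adjusted p = 0.00464). The FUN025/+ libraries lay below all WT libraries.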

How the data were processed

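The data were 15 posterior eyecup libraries from 4 WT, 6 FUN025/+ and 5 FUN025/FUN025 mice, grouped by their labels. Libraries were made with the NEBNext Ultra RNA kit, and per the labels the eyecups of each mouse were pooled. The authors deposited raw counts per Ensembl gene for each library. The submitters' processing notes name FastQC 0.11.8, Trimmomatic 0.39, HISAT2 2.1.0, SAMtools, featureCounts 2.0.0 and build GRCm38. The strand setting and the treatment of reads shared by genes are not given in the sources used here. Symbols, coordinates and exons came from GENCODE M21, which held 55240 of 55421 genes.

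The 15% of genes with the lowest variance and genes with low counts were removed, following the filters of the study (edgeR filterByExpr for low counts), which left 18979 genes. Counts were scaled by TMM and tested in 1 fit over all 15 libraries with edgeR 4.0.16 (quasi-likelihood, Benjamini-Hochberg adjusted p under 0.05). The regression on allele number used limma 3.58.1 on log2 CPM with a prior count of 2. Steps ran in R 4.3.3 and were tested on simulated data. Alternatives were DESeq2 1.42.0 (test and size factors), limma, upper-quartile scaling, other filters, fits of the compared genotypes alone, a replicate block, thinning to 10903183 counts, a GC offset, marker and Xist covariates, protein-coding genes alone and leaving out each library. Where the text gives values in every library of a gene, the gene had passed in a comparison or a sentence on its role group needed them. The 41 genes, the other pathway genes and the marker lists were chosen with earlier results of these data known, and some of the pathway and marker genes are not reported here. Each library is 1 mouse. At 10903183 to 20029919 counts, 3 counts in a library correspond to 0.150 to 0.275 CPM.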

Additional observations from a re-analysis of the deposited data

Results flagged for a closer look

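In 9 of 114 groups of libraries (38 genes in 3 genotypes), the highest or lowest library stood farther from its nearest neighbour than Dixon's criterion allows, and chance gives about 1 in 20. Of these, 4 concern C1q chains. In WT replicate 4, C1qa was at 108 CPM and C1qb at 88.0 CPM, with the next WT library at 79.5 and 62.5 CPM. In FUN025/+ replicate 2, C1qa was at 106 CPM and C1qc at 89.1 CPM, with the next at 76.9 and 65.3 CPM. The macrophage markers of these libraries summed to 664 CPM, the second of 4 in WT, and to 755 CPM, the highest of all. By their mean log2 CPM, at 5.11 and 5.25, each library was the highest of its genotype. WT replicate 4 was also the highest for Cfd, at 18.1 CPM with the next at 3.66 CPM.

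The other 4 were Cd55, lowest in WT replicate 2 at 11.1 CPM with the next at 14.5 CPM, Masp1, lowest in FUN025/FUN025 replicate 3 at 2.41 CPM with the next at 2.90 CPM, F8, highest in FUN025/+ replicate 5 at 5.36 CPM with the next at 3.93 CPM, and Plau, highest in WT replicate 1 at 16.6 CPM with the next at 13.1 CPM.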

How the results depend on the processing

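The number of members called in FUN025/FUN025 against FUN025/+ stayed between 2 and 4 in 16 alternatives and between 3 and 4 when 1 library was left out, against 3 in the fit described. In FUN025/FUN025 against WT the 9 calls became 5 with rod and muscle marker covariates and ranged from 6 to 10 without 1 library. In FUN025/+ against WT the 5 calls became 3 without a filter on low counts, 0 with rod and muscle marker covariates, and 2 to 6 without 1 library, with 2 calls without WT replicate 4 and 3 without WT replicate 2 or 3 or FUN025/+ replicate 3. The regression on allele number gave 2 to 4 calls without 1 library. Fitting replicate number as a replicate block gave 3 calls in FUN025/+ against WT and 1, Cfi, in the regression. Same-numbered libraries come from different mice, and their deviations correlated by -0.385 to 0.133. These values cannot decide whether same-numbered libraries share a batch, which the labels do not give. No called gene changed direction in any alternative. The causes of these changes were not tested.

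Depth limits Cfi in WT (3 to 14 counts) and in FUN025/+ (4 to 12 counts), Cfb, Masp1, F8 and the 3 genes that were not tested. For Cfb, whether reads shared with an overlapping gene model also affect the level was not tested. Apart from the fit thinned to equal depth, the p-values of mutants against WT carry the difference in depth between these libraries. After thinning, 5 members were called in FUN025/+ and 10 in FUN025/FUN025 against WT. Thinning does not remove any other difference in how the WT libraries were made.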

Other observations

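The ratios of C1q chain counts within a library, looked at after the values were seen and therefore given without a test, differed between genotypes for some pairs of chains. The ratio of C1qb to C1qc was 0.887 to 0.950 in the 4 WT libraries, 1.01 to 1.08 in the 6 FUN025/+ libraries and 0.953 to 1.23 in the 5 FUN025/FUN025 libraries, so that every mutant library was above every WT library and the mutant genotypes overlapped. The ratio of C1qa to C1qb was 1.23 to 1.27 in WT, 1.10 to 1.16 in FUN025/+ and 1.10 to 1.31 in FUN025/FUN025, with FUN025/+ below WT and FUN025/FUN025 overlapping both. The ratio of C1qa to C1qc was 1.12 to 1.18 in WT, 1.14 to 1.22 in FUN025/+ and 1.15 to 1.35 in FUN025/FUN025, and all 3 genotypes overlapped. The mutant libraries also differ from WT in depth, which cannot be told apart from genotype here. None of the 3 genes shares sequence of 31 bases with another gene.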
